A study of Mus musculus with 200 samples.

Results

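The linker and core histone cluster genes were followed in the brain after closed-head injury (CHI), a single impact to the intact skull, or sham surgery. Members were the rows of the deposited count table whose gene name starts with H1f, H2ac, H2bc, H3c or H4c plus a digit and that had at least 10 estimated counts in at least 20 of the 200 mice. Of 76 genes with such names, 18 were members, in a table of 56941 genes. They were the linker histone genes H1f0, H1f10, H1f2 and H1f4, the pseudogene H1f11-ps, and the core histone genes H2ac6, H2ac18, H2ac19, H2ac25, H2bc4, H2bc6, H2bc21, H2bc27, H3c14, H3c15, H4c8, H4c9 and H4c14. The other 58 genes were nearly silent in these libraries. Their median over the mice was 0 counts for 46 of them and 3.02 counts for the highest, and 3 had 0 counts in every mouse.

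RNA of 1 hemisphere per mouse, taken after perfusion with PBS, was sequenced from poly(A)-selected libraries at 9, 24 or 72 h after surgery. The mice were of 4 strains, C57BL/6J (n = 61) and mice labelled IL-1R1 gKO (n = 55), IL-1R1 eRestore (n = 50) and IL-1R1 nRestore (n = 34). In the order of 9, 24 and 72 h, CHI and sham mice numbered 15 and 6, 14 and 6, and 14 and 6 in C57BL/6J, 13 and 6, 12 and 6, and 12 and 6 in gKO, 12 and 6, 9 and 5, and 12 and 6 in eRestore, and 6 and 4, 8 and 5, and 6 and 5 in nRestore. The groups addressed how CHI altered the transcriptome over the first days and how the response compared between strains. Mice of both sexes were used, except that the 11 nRestore mice at 72 h were all labelled male, and ages ran from 3.3 to 7.67 months. The labels name the IL-1R1 strains and describe neither their alleles nor a promoter or Cre, and the methods of the study describe the C57BL/6J mice only. By those methods surgery was done in the morning, so collection at 9 h fell at another time of day than collection at 24 and 72 h. Time after surgery and time of day therefore cannot be told apart between 9 h and the later times.

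Histones package DNA. Pairs of H2A, H2B, H3 and H4 form the nucleosome core, and H1 linker histones bind where DNA enters and leaves it. Most of the genes sit in clusters and are transcribed in S phase, when new DNA needs histones. Their mRNAs are known for ending in a short stem-loop in place of a poly(A) tail, and the stem-loop is bound by SLBP, which guides processing, translation and decay. H1f0 and H1f10 lie outside the clusters, are made throughout the cell cycle and carry a poly(A) tail, and H1f0 is typical of cells that have stopped dividing, as most brain cells have. Some cluster genes also give longer, polyadenylated transcripts in differentiated cells. A poly(A)-selected library therefore need not count the short stem-loop mRNA and the longer transcripts of a cluster gene alike, and the counts used here do not separate them.

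The stem-loops are shown first, since they set the cluster genes apart from H1f0 and H1f10. A stem of 6 base pairs with a loop of 4 bases was found within 150 bases of the stop codon in 14 of the 17 coding members and in 49 of the 56 coding genes that were no members. It was not found in H1f0, H1f10 or H2bc21. The sequences were read from the GRCm39 genome after the stop codon annotated in GENCODE vM39, 5′ to 3′ in the sense of the gene. The stem and loop are in capitals, with 5 bases on either side in lower case. The sequences shown are those of the members whose levels the results turn on. The stem-loop of H1f2 lies at chr13:23923495-23923510 on the plus strand, that of H1f4 at chr13:23805765-23805780 on the minus strand, and that of H2bc6 at chr13:23769514-23769529 on the minus strand. That of H2bc4 lies at chr13:23868630-23868645, that of H2ac25 at chr11:58845998-58846013, that of H3c14 at chr3:96154643-96154658 and that of H4c8 at chr13:23715628-23715643, all on the plus strand.
H1f2: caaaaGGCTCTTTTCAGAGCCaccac
H1f4, H2bc4, H2bc6 and H2ac25: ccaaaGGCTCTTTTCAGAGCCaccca
H2ac18 and H2ac19: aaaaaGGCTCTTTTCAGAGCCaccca
H3c14 and H3c15: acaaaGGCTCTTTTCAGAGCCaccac
H4c8: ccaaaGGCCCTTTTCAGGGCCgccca
The stem and loop were identical in all of these but H4c8, whose stem differed, and H1f4, H2bc4, H2bc6 and H2ac25 also shared the 10 flanking bases. The stem-loop began 25 to 59 bases after the stop codon in the 14 members. In 11 of the 14 an annotated transcript ran more than 100 bases past it, as it did in 14 of the 49 other genes with a stem-loop, and in 8 and 7 of these, respectively, such a transcript held AATAAA or ATTAAA in its last 40 bases. The longest annotated transcript went 840 bases past the stem-loop in H1f2, 1153 in H1f4, 2919 in H2bc6 and 9518 in H2bc4, but only 35 in H2ac18 and 46 in H4c8.

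Promoters of the linker histone genes H1f2, H1f4 and H1f0 are shown, a choice made with their values known, and that of H1f10 is not shown. Over all strains H1f2 and H1f4 were called lower at 24 h after CHI, while the smaller fall of H1f0 missed the threshold. Within the experiment labelled eIL-1-38, H1f0 was called at 24 h and H1f2 was not, so this contrast depends on the fit. Each sequence runs from 250 bases before to 50 bases after the start of the canonical transcript (GENCODE vM39, GRCm39), with CCAAT and TATAAA, searched on both strands, in capitals. H1f2 is shown for chr13:23922541-23922840 on the plus strand, H1f4 for chr13:23806492-23806791 on the minus strand and H1f0 for chr15:78912400-78912699 on the plus strand.
H1f2: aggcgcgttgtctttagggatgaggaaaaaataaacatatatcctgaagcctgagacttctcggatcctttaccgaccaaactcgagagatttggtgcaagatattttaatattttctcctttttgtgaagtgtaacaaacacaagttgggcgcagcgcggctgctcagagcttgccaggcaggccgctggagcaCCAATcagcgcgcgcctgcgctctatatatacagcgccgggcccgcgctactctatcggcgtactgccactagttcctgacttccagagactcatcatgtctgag
H1f4: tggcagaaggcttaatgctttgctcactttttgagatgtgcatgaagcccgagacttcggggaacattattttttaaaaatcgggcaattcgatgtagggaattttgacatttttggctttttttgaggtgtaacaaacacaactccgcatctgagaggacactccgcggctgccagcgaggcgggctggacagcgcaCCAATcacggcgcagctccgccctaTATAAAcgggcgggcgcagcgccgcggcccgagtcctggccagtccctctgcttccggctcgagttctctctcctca
H1f0: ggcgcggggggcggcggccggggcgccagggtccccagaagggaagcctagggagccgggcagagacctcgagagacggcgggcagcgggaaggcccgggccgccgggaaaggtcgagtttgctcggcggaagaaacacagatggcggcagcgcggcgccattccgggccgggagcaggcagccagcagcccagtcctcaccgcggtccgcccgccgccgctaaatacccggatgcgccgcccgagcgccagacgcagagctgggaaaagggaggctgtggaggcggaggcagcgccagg
CCAAT stood in H1f2 and H1f4 and TATAAA in H1f4, and H1f0 held neither. Over the members, CCAAT was in 12 of 18 promoters, against 39.92% of 21770 promoters of the annotation. TATAAA was in 8 of 18, against 13.2%, and the octamer ATTTGCAT in 3 of 18, against 1.631%. Of the 58 other genes with such names, 48 held CCAAT, 30 held TATAAA and 14 held ATTTGCAT, so the motifs are not particular to the members. These are matches of letters only.

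Several members share sequence or overlap with other genes, which limits what their counts can say. H2ac18 and H2ac19 share nearly all of their transcript sequence. H3c14 shares sequence with more than H3c15, since its transcripts held 1795 different words of 31 bases and those of H3c15 only 990. H2ac18 and H3c14 both overlap Gm20634 on their own strand, so their reads could also be given to that gene. Of the 31-base words in its transcripts, 0% were unique to H2ac19, to H3c14 and to H1f11-ps, 10.3% to H2ac18, 29.0% to H2ac25 and 35.8% to H3c15. The share was 63.6% in H1f4, 88.6% in H1f2 and 100% in H1f0 and H1f10. The median was 67.0% in the members and 40.5% in the other genes. On GRCm39, H2bc6 (chr13:23766595-23805139, minus strand, a gene with up to 3 exons) runs into H1f4 (chr13:23804612-23806541, minus strand, 1 exon), so part of the reads of these neighbours could be given to either. H2bc4 (chr13:23867631-23878163) overlaps H2ac6 on the opposite strand, and H2ac25 (chr11:58845511-58847656) overlaps Trim17 on its own strand. Whether the libraries kept the strand is not given in the sources used here. H1f2 (chr13:23922791-23924350, plus strand, 1 exon) and H2bc21 (chr3:96128435-96131054) overlap no annotated gene. Of the members, 7 are on chromosome 13, 6 on chromosome 3 and 2 on chromosome 11, the sites of the clusters, and H1f0, H1f10 and H1f11-ps lie alone on chromosomes 15, 6 and 19.

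In the TPM table, which corrects for transcript length and so allows genes to be compared, H1f0 was by far the most abundant member, with a median of 95.7 TPM over the 200 mice (range 69.0 to 125.6). H2bc4 followed with 34.5 TPM (19.5 to 59.7), then H2ac18 with 28.7 TPM (0 to 55.2), H1f10 with 28.4 TPM (18.9 to 39.2), H2bc27 with 28.3 TPM and H2ac25 with 25.8 TPM (11.7 to 34.6). The ranges of H2bc4, H2ac18, H1f10, H2bc27 and H2ac25 overlapped, so their order is not firm. H1f2, a linker histone of the cluster on chromosome 13, came next with 17.1 TPM (9.9 to 30.4). The remaining members were below 5 TPM, among them H2bc21 with 4.15, H4c8 with 4.05, H2bc6 with 2.91 (0.908 to 7.23), H3c15 with 1.8 and H1f4 with 1.34 TPM (0.0636 to 4.25). H2ac19 and H3c14 had a median of 0 TPM.

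**Figure D1:**
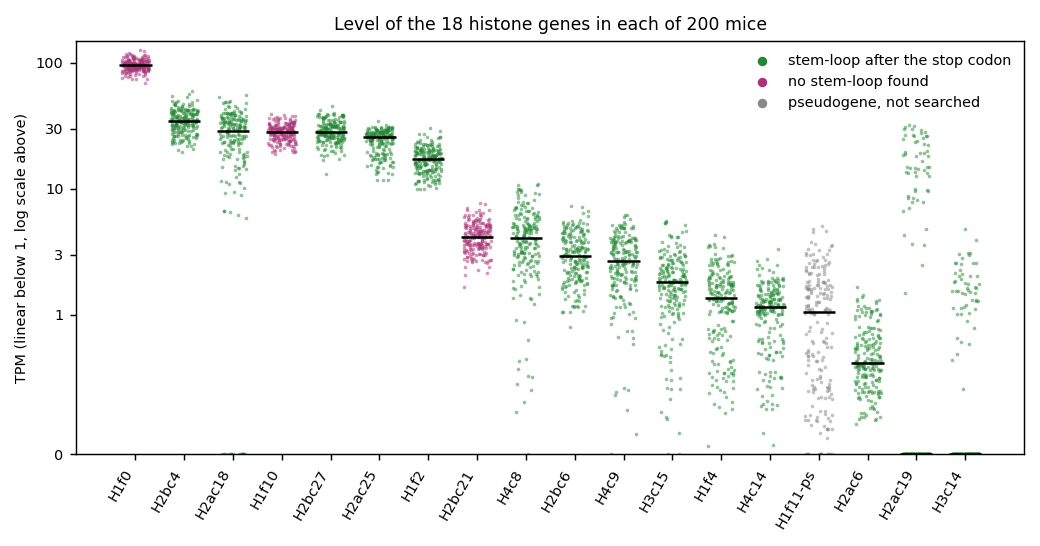
TPM of each of the 18 members in each of the 200 mice, on an axis that is linear below 1 TPM and logarithmic above, with 1 point per mouse, a bar at the median and the colour giving whether a stem-loop was found. H1f0, with a median of 95.7 TPM, stands above the other members, and the members with a stem-loop spread from a median of 0 TPM (H2ac19, H3c14) to 34.5 TPM (H2bc4).

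Total estimated counts ranged from 14857985 to 57355676 per mouse, with a median of 20258936, so that H1f0 rested on a median of 1927 counts, H1f2 on 253, H2bc6 on 71.7 and H1f4 on 28.3. No 2 columns were identical, and the highest correlation of log2 CPM (TMM-normalised counts per 1000000 counts of the library) between 2 mice was 0.997. In 2 of the 200 mice, labelled male, Xist counts were high and Ddx3y was at 0. They were a sham eRestore mouse at 24 h and a CHI nRestore mouse at 72 h, and the calls over all strains at 24 h and that of H3c14 in nRestore mice are given with and without them. Il1r1 was not lower in the libraries labelled gKO (median 9.91 CPM) than in those of C57BL/6J (5.24), and gene-level counts cannot show which part of a gene an allele lacks, so this checks neither the label nor the allele. The mice also carry an experiment label, and no experiment held mice of 9 h and of a later time. Markers of neurons, astrocytes and oligodendrocytes were abundant in every mouse, with summed medians of 7026, 1317 and 5061 CPM. The muscle marker Ckm had a median of 0 CPM, and the 5 choroid plexus markers ranged from 4.54 to 3610 CPM in sum.

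CHI lowered a small number of cluster members at 9 and 24 h, and by 72 h no member but H3c14 was called in any comparison with sham mice. A gene was called at an adjusted p under 0.05 by edgeR's quasi-likelihood test, fitted with the age and sex of each mouse and adjusted by Benjamini-Hochberg over every gene tested, and levels are given in CPM. In C57BL/6J mice, H1f4 and H2bc6 fell at 9 h, and H1f2 and H2bc6 fell at 24 h. In eRestore mice, H1f4, H2ac25 and H2bc4 fell at 9 h, and in nRestore mice H3c14 was called at 72 h. All 4 strains in 1 fit, with strain as a further covariate, gave 3 members lower at 9 h (H1f4, H2bc6, H2ac25), 6 lower at 24 h (H1f4, H2bc6, H1f2, H3c15, H2bc4, H2bc21) and 0 at 72 h. No member was called higher in any of these comparisons. In bulk tissue, fewer cells of a type and less RNA per cell cannot be told apart, and nothing says whether mice shared a litter or cage.

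These counts stand against the share of all genes called. In C57BL/6J mice 14.1%, 0.404% and 0% of the genes tested were called at 9, 24 and 72 h, and 2 of 17, 2 of 16 and 0 of 15 members tested. The shares were 0.199%, 0.0059% and 0% in gKO mice, with 0 members at each time, 7.34%, 0% and 0.00605% in eRestore mice, with 3, 0 and 0, and 0.608%, 0% and 0.0121% in nRestore mice, with 0, 0 and 1. Over all strains they were 23.9%, 1.48% and 0.706%, with 3, 6 and 0 of 18 members. The 3 of 18 at 9 h were thus a smaller share than that of all genes, and the 6 of 18 at 24 h a larger one. The fit at 24 h held no term for the experiment, and the experiment NiL-1-21 gave 18 CHI mice but 1 sham mouse. With the experiment added to that fit, H2bc4, H2bc21 and H3c15 were no longer called by edgeR. Of the comparisons with 0 members called by edgeR, 9 h in gKO and nRestore mice had 2 and 3 members with an unadjusted p under 0.05, 24 h in gKO, eRestore and nRestore mice had 6, 3 and 5, and 72 h in C57BL/6J, gKO and eRestore mice had 0, 1 and 4. DESeq2 with size factors called 0 members in these as well, except for H2bc6 in nRestore mice at 24 h. At 72 h over all strains, 4 members had an unadjusted p under 0.05, and DESeq2 called 0.

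The direction at 24 h was lower for 15 of the 18 members over all strains, with a median log2 fold change of -0.34 against -0.001 over all genes, of which 50.5% were lower. At 9 h, 13 of 18 were lower (median -0.16 against -0.003), and at 72 h 17 of 18 (median -0.08 against -0.003). The genes of a cluster are neighbours, and some share reads, so they do not count as independent. Summed over the 14 stem-loop members, the median was 69.6 CPM in CHI and 83.1 CPM in sham mice at 24 h, 59 and 66.8 CPM at 9 h, and 79.3 and 83.2 CPM at 72 h, with overlapping ranges at each time. Summed over the 3 coding members in which no stem-loop was found, dominated by H1f0, it was 105.7 and 112 CPM at 24 h, 127.4 and 121.3 CPM at 9 h, and 110.4 and 107.7 CPM at 72 h.

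**Figure D2:**
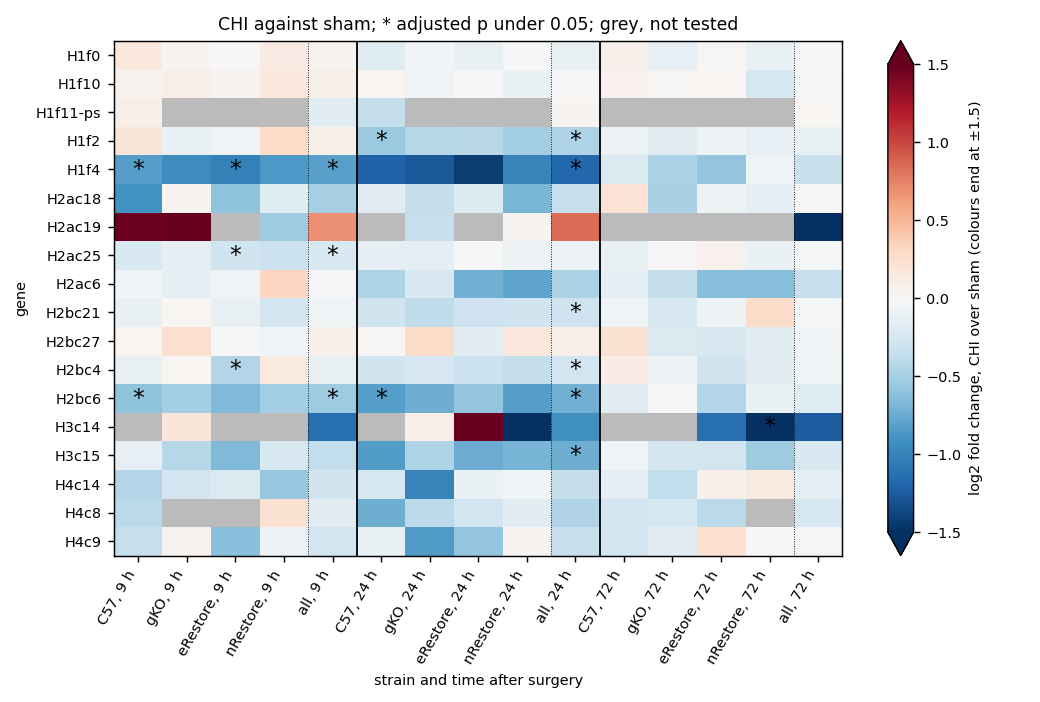
Log2 fold changes, CHI over sham, of the 18 members (rows) in the 12 strain-by-time comparisons and the 3 comparisons over all strains (columns), as a heat map whose colours end at 1.5 in either direction, which the fitted values of H2ac19 and H3c14, at 0 counts in most mice, exceed in some columns. Asterisks mark an adjusted p under 0.05 and grey cells were not tested, and the called cells are all on the lower side, 6 of them over all strains at 24 h.

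H1f4, a linker histone of the chromosome 13 cluster, showed the largest fall among the members called at 24 h. Its lowest, median and highest values at 24 h in C57BL/6J mice were 1.14, 1.89 and 2.67 CPM in sham mice and 0.267, 0.737 and 1.92 CPM in CHI mice. Of the 14 CHI mice, 11 lay below every sham mouse, and the rest lay within the sham range. The log2 fold change was -1.22 (SE 0.296), with an adjusted p of 0.0692 by edgeR that missed the threshold, while DESeq2 with size factors gave 0.0146 for the same mice. In gKO mice the values were 0.837, 2.66 and 4.16 CPM in sham and 0.401, 0.918 and 2.26 CPM in CHI mice. The 5 sham eRestore mice had 0.868, 1.06, 1.87, 2.23 and 2.81 CPM against 0.342, 0.558 and 1.65 CPM (lowest, median, highest) in 9 CHI mice. The 5 sham nRestore mice had 1.27, 1.43, 1.49, 1.59 and 2.44 CPM against 0.545, 0.76 and 1.86 CPM in 8 CHI mice. The CHI median was below the lowest sham mouse in C57BL/6J, eRestore and nRestore mice, and above it in gKO mice, and in each strain some CHI and sham mice overlapped.

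Over all strains H1f4 fell by 1.17 on the log2 scale at 24 h (SE 0.178, adjusted p = 3.3e-05), with 40 of 43 CHI mice below the sham median and 26 below every sham mouse. The lowest of those sham values came from a mouse of the gKO strain, at 0.837 CPM. Within single experiments the values were -1.39 in eIL-1-38 (adjusted p = 0.00173, 17 CHI and 9 sham mice) and -1.17 in NiL-1-24 (adjusted p = 0.346, 8 and 12 mice), and the experiment NiL-1-21 had a single sham mouse. Without the sham mouse that went against its sex label the value was -1.20 (adjusted p = 1.59e-05). With only about 28 counts per mouse, H1f4 was also among the least precisely measured of the members called.

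At 9 h H1f4 was lower after CHI in every strain, by 0.81 on the log2 scale over all strains (SE 0.148, adjusted p = 2.12e-05). Sham C57BL/6J values ran from 1.02 to 3.38 CPM (median 1.51) and CHI values from 0.382 to 1.71 CPM (median 0.892), with 11 of 15 CHI mice below every sham mouse (log2 fold change -0.83, SE 0.248, adjusted p = 0.025). A single sham mouse, replicate A087, held the value of 3.38 CPM while the other 5 lay between 1.02 and 1.76 CPM. Without it the log2 fold change was -0.61 and the adjusted p 0.135, and without sham replicate A180 they were -0.74 and 0.0729, so the call at 9 h in this strain rests on those mice. In eRestore mice, sham values of 0.651, 1.27 and 1.956 CPM (lowest, median, highest) stood against 0.325, 0.593 and 1.5 CPM after CHI (log2 fold change -1.02, SE 0.293, adjusted p = 0.0391). This call was lost without any of 4 of the 6 sham mice (replicates A097, A098, A175 and A089, adjusted p = 0.06645 to 0.119) and with the experiment in place of age (-0.68, adjusted p = 0.15). The gKO and nRestore mice gave -0.93 and -0.87 with adjusted p of 0.222 and 0.231. Within the experiments at 9 h the all-strain value was -0.79 in eIL-1-76, -0.9985 in eIL-1-80 and -0.68 in TM-2-33, with adjusted p of 0.0473, 0.0103 and 0.093. At 72 h the difference over all strains was -0.33 (95% interval -0.58 to -0.09, adjusted p = 0.381), with 38 of 44 CHI mice below the sham median but 0 below every sham mouse. It was -0.44 in eIL-1-38, -0.71 in eIL-1-56 and 0.24 in nIL-1-60, none of them called.

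H1f2, another linker histone of the chromosome 13 cluster, with a higher TPM than H1f4, was lower at 24 h and not at 9 h. At 24 h in C57BL/6J mice it ran from 11.4 to 14.6 CPM in sham mice (median 13.1) and from 7.25 to 12.4 CPM in CHI mice (median 8.71). Here 13 of 14 CHI mice lay below every sham mouse, a higher number than for any other member in this strain at 24 h. It fell by 0.55 on the log2 scale (SE 0.102, adjusted p = 0.00959). Without the sham replicate A005 the fall was 0.53, and the adjusted p rose to 0.12. In gKO mice at 24 h, sham values were 11, 15.7 and 21.1 CPM (lowest, median, highest) against 7.4, 11.7 and 16.8 CPM after CHI. The 5 sham eRestore mice had 8.84, 12.4, 12.6, 12.7 and 16.9 CPM against 6.93, 10.6 and 15.8 CPM, and the lowest of the sham values was the mouse that went against its sex label. The 5 sham nRestore mice had 12.3, 12.8, 14.7, 15.8 and 16.9 CPM against 9.17, 10.2 and 12.9 CPM. Ranges met in all of these, least in nRestore mice, where 6 of 8 CHI mice were below every sham mouse.

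The log2 fold changes of H1f2 at 24 h were -0.43, -0.41 and -0.52 in gKO, eRestore and nRestore mice, each short of the threshold (adjusted p = 0.53, 0.57 and 0.955). Over all strains H1f2 fell by 0.46 (SE 0.0809, adjusted p = 0.000391), with 38 of 43 CHI mice below the sham median. It was -0.42 within eIL-1-38 and -0.44 within NiL-1-24 (adjusted p = 0.161 and 0.346), and -0.48 without the mouse that went against its label. At 9 h H1f2 was at 0.18, -0.11, -0.05 and 0.30 in C57BL/6J, gKO, eRestore and nRestore mice and at 0.08 over all strains (95% interval -0.07 to 0.23, adjusted p = 0.512). In C57BL/6J mice the change of the CHI effect from 9 h to 24 h was itself tested and was -0.73 (SE 0.183, adjusted p = 0.00823).

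**Figure D3:**
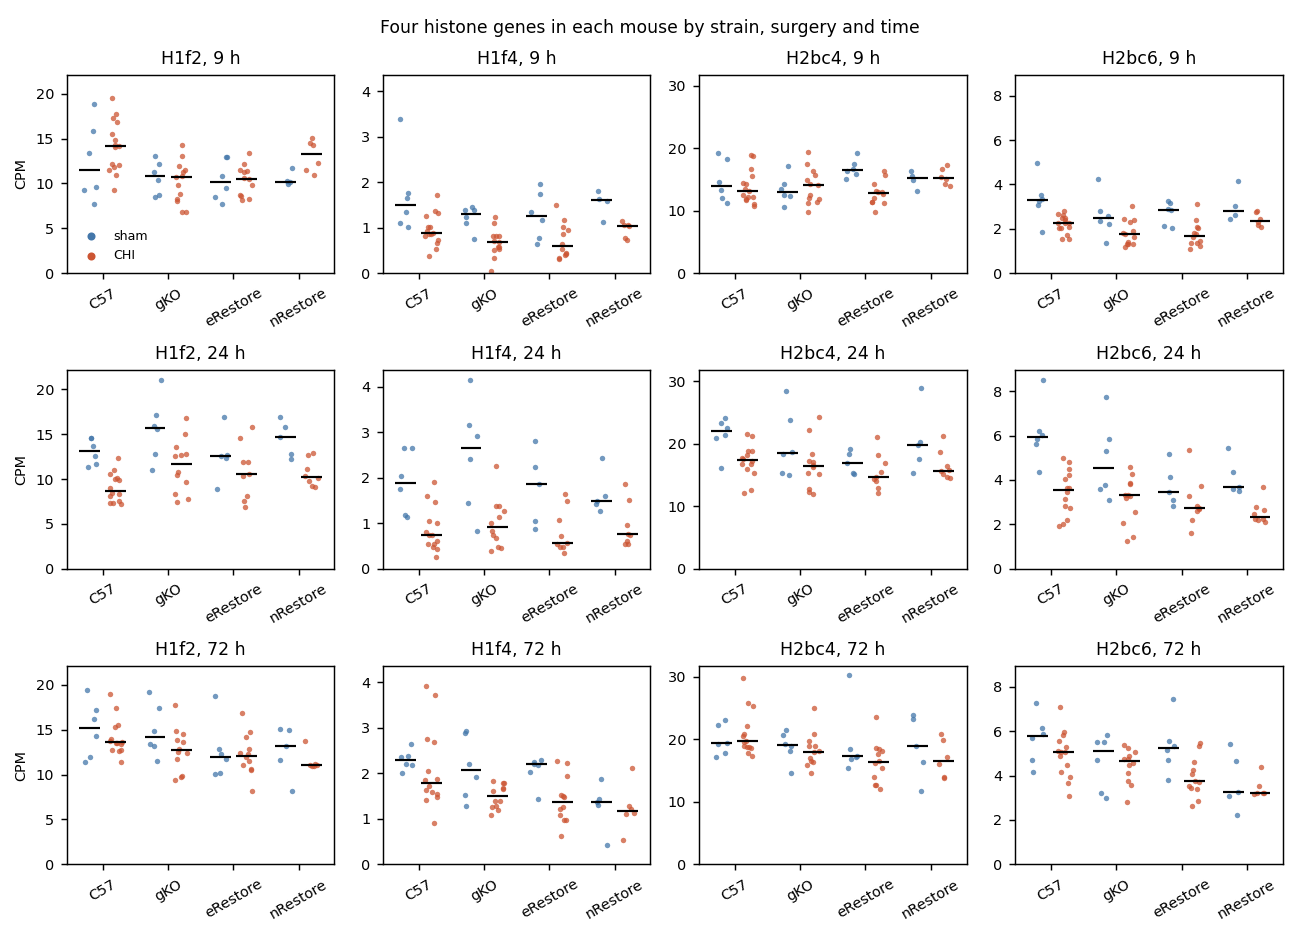
CPM of H1f2, H1f4, H2bc4 and H2bc6 in each mouse, by strain, surgery and time after surgery, with 1 point per mouse and a bar at the median of each group. At 24 h the medians of H1f4 are 1.89 and 0.737 CPM in sham and CHI C57BL/6J mice, and those of H1f2 are 13.1 and 8.71 CPM.

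The linker histones outside the clusters moved little. H1f0 at 24 h in C57BL/6J mice ran from 92.4 to 104 CPM in sham mice (median 98.4) and from 70.5 to 95.6 CPM in CHI mice (median 87.7), with 12 of 14 CHI mice below every sham mouse. Its log2 fold change was -0.18 (SE 0.0447), and the adjusted p of 0.071 missed the threshold. In gKO, eRestore and nRestore mice the ranges overlapped broadly, with log2 fold changes of -0.04, -0.11 and -0.01. Over all strains the value was -0.11 (SE 0.031, adjusted p = 0.0535), and without the mouse that went against its sex label -0.11 with an adjusted p of 0.0373, which passed. Within eIL-1-38 it was -0.16 and called (adjusted p = 0.0274), and within NiL-1-24 -0.11 (adjusted p = 0.975). At 9 h H1f0 was at 0.16 in C57BL/6J mice (adjusted p = 0.052), and the change of its CHI effect from 9 to 24 h in that strain was -0.34 (SE 0.0749, adjusted p = 0.00204). H1f10 was at 0.09 (95% interval -0.01 to 0.19) at 9 h, -0.01 (-0.10 to 0.08) at 24 h and -0.03 (-0.12 to 0.06) at 72 h over all strains. The pseudogene H1f11-ps, with 10 counts in 40 mice only, was at -0.16, 0.04 and 0.02 with standard errors of 0.249, 0.31 and 0.323.

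Among the H2B genes, H2bc6 was called most often. At 24 h in C57BL/6J mice it ran from 4.36 to 8.52 CPM in sham mice (median 5.92) and from 1.94 to 4.97 CPM in CHI mice (median 3.55), with 11 of 14 CHI mice below every sham mouse. It fell by 0.83 on the log2 scale (SE 0.181, adjusted p = 0.0417), a call lost without any of 5 of the 6 sham mice (A005, A031, A054, A123, A133), which gave adjusted p of 0.067 to 0.198. In gKO mice the medians were 4.55 CPM in sham and 3.3 CPM in CHI mice, in eRestore mice 3.46 and 2.76 CPM, and in nRestore mice 3.67 and 2.35 CPM. In nRestore mice 7 of 8 CHI mice lay below every sham mouse, and in gKO and eRestore mice 4 of 12 and 6 of 9 did. The log2 fold changes there were -0.73, -0.60 and -0.82, with adjusted p of 0.448, 0.459 and 0.84 by edgeR. For the nRestore mice DESeq2 with size factors gave an adjusted p of 0.0423. Over all strains H2bc6 fell by 0.72 at 24 h (SE 0.117, adjusted p = 0.000111; -0.74 and 5.91e-05 without the mouse that went against its sex label), by 0.53 at 9 h (SE 0.0935, adjusted p = 1.05e-05) and by 0.19 at 72 h (SE 0.0815, adjusted p = 0.544, not called). At 9 h, 44 of 46 CHI mice lay below the sham median.

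H2bc6 at 9 h in C57BL/6J mice ran from 1.88 to 4.97 CPM in sham mice (median 3.29) and from 1.56 to 2.81 CPM in CHI mice (median 2.25). Only 3 of 15 CHI mice were below every sham mouse, since the lowest sham mouse lay within the CHI range. The log2 fold change was -0.61 (SE 0.162, adjusted p = 0.0123), and -0.42 with an adjusted p of 0.0836 without sham replicate A087, the mouse that was also highest for H1f4. In eRestore mice the value at 9 h was -0.66 (adjusted p = 0.0546), with an adjusted p of 0.035 without sham replicate A189. H2bc6 overlaps H1f4 on the same strand, so falls of the neighbours are not independent measurements. Within experiments the all-strain value of H2bc6 was -0.64 in eIL-1-38 and -0.75 in NiL-1-24 at 24 h, neither called (adjusted p = 0.162 and 0.288). At 9 h it was -0.56 and called in eIL-1-76 (adjusted p = 0.00424), and -0.54 in TM-2-33 and -0.65 in eIL-1-80, where the call was lost (adjusted p = 0.0557 and 0.0786).

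H2bc4, the most abundant H2B gene in TPM, was called in eRestore mice at 9 h. There it ran from 15 to 19.2 CPM in sham mice (median 16.5) and from 9.83 to 16.3 CPM in CHI mice (median 12.8), with 10 of 12 CHI mice below every sham mouse (log2 fold change -0.43, SE 0.0866, adjusted p = 0.00545). In the other strains at 9 h it was at -0.11, 0.03 and 0.15 in C57BL/6J, gKO and nRestore mice, and the difference between eRestore and C57BL/6J mice, -0.31 (95% interval -0.62 to 0.01), was not called (adjusted p = 0.417). At 24 h C57BL/6J sham mice ran from 16.2 to 24.1 CPM (median 22) and CHI mice from 12.2 to 21.6 CPM (median 17.4), with a log2 fold change of -0.30 (adjusted p = 0.283), or -0.39 with an adjusted p of 0.0491 without sham replicate A055. Over all strains H2bc4 fell by 0.28 at 24 h (SE 0.0726, adjusted p = 0.0293), or by 0.29 without the mouse that went against its sex label (adjusted p = 0.0251). It was -0.27 within eIL-1-38 and -0.25 within NiL-1-24, neither called (adjusted p = 0.206 and 0.93), and the call was lost when the experiment was a covariate in addition to age (-0.23, adjusted p = 0.0575). H2bc21, the H2B gene in which no stem-loop was found, fell by 0.32 over all strains at 24 h (SE 0.089, adjusted p = 0.0496), a value at the threshold that gave 0.0532 without the mouse that went against its label and 0.146 with the experiment added. H2bc27 was at 0.08, 0.10 and -0.04 at 9, 24 and 72 h, with intervals that all included 0.

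Among the H2A genes, H2ac25 fell at 9 h. In eRestore mice it ran from 20.2 to 24.4 CPM in sham mice (median 21.7) and from 14.4 to 20.2 CPM in CHI mice (median 18.6), and 11 of 12 CHI mice were below every sham mouse. The fall was 0.30 on the log2 scale (SE 0.0712, adjusted p = 0.0162), with an adjusted p of 0.0641 without sham replicate A098. C57BL/6J mice gave -0.23 (adjusted p = 0.0557), gKO mice -0.14 and nRestore mice -0.32, and all strains -0.22 (SE 0.0512, adjusted p = 0.000592). Within TM-2-33, eIL-1-76 and eIL-1-80 the values of H2ac25 were -0.24, -0.22 and -0.17, and the call was lost in each (adjusted p = 0.241, 0.0753 and 0.11). At 24 and 72 h H2ac25 was at -0.09 and -0.03 over all strains, neither called. H2ac6, which lies against H2bc4 on the other strand, was at -0.47 at 24 h (SE 0.152, adjusted p = 0.0931).

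Genes that share much sequence were read in pairs, H2ac18 with H2ac19 and H3c14 with H3c15. Gm20634, which overlaps H2ac18 and H3c14 on their own strand, was not part of either pair. H2ac19 was at 0 counts in 70.5% of the 200 mice and H2ac18 in 8.5% (17 mice), yet no mouse had 0 counts for both. H3c14 was at 0 in 72.5% of the mice and H3c15 in 2 mice, and those 2 mice had 0 for both. Reads that match more than 1 gene must be shared out by an estimate, and the part of that estimate in these zeros was not tested. The fall of H3c14 called in nRestore mice at 72 h rests on such zeros. The 5 sham mice had 1.125, 1.484, 1.811, 4.312 and 1.981 CPM of H3c14, and the 6 CHI mice had 0 counts each, so the groups did not overlap. For H3c15 the same sham mice had 8, 10, 23, 34 and 6 counts and the CHI mice 10, 7, 7, 24, 21 and 0 counts, which overlapped. The edgeR test gave an adjusted p of 0.013. With 0 counts in every CHI mouse, H3c14 passed the count minimum of this fit through the sham mice alone. Setting the 242 counts of the sham group against an assumed floor of 3 counts over the CHI group gave a fold of 95.7. That value depends on the floor chosen and on how shared reads were given out, so it is no firm bound on the level. With the pair summed, a choice made after the values were seen, the log2 fold change was -2.45 (SE 0.494) and the adjusted p 0.564. The sum holds H3c14 and H3c15 only, so reads given to Gm20634 are not in it. Without the CHI mouse that went against its sex label H3c14 was still called (adjusted p = 0.0119), and in the largest experiment alone it was not (adjusted p = 0.114).

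Of the other results on pairs, H3c15 fell by 0.74 over all strains at 24 h (SE 0.185, adjusted p = 0.0235), with 40 of 43 CHI mice below the sham median. Summed with H3c14, the fall was 0.77 (SE 0.236) and the adjusted p 0.0745, so the call did not carry over to the sum. With the experiment added to the fit H3c15 alone was at -0.70 (adjusted p = 0.0511), and within eIL-1-38 and NiL-1-24 at -0.90 and -0.43 (adjusted p = 0.161 and 0.975). Without the mouse that went against its sex label H3c15 alone was at -0.77 (adjusted p = 0.0143). At 24 h in C57BL/6J mice H3c15 ran from 0.844 to 2.26 CPM in sham mice (median 1.22) and from 0.311 to 1.37 CPM in CHI mice (median 0.641). There H3c15 alone missed the threshold (-0.84, adjusted p = 0.131), while the sum passed it (-1.04, SE 0.222, adjusted p = 0.0273). For the H2A pair, the sum fell by 0.64 in eRestore mice at 9 h (SE 0.143, adjusted p = 0.0109) and was at -0.28 over all strains at 9 h and -0.20 at 24 h (adjusted p = 0.0784 and 0.278). The H4 genes H4c8, H4c9 and H4c14 had medians of 8.07, 14 and 18 counts, and over all strains at 24 h they were at -0.45, -0.35 and -0.35 (adjusted p = 0.216, 0.275 and 0.315). H4c8, the H4 gene with the highest TPM, ran from 0.297 to 1.18 CPM in sham and from 0.0535 to 0.703 CPM in CHI C57BL/6J mice at 24 h, so that most of the ranges overlapped. H2ac18, the H2A gene with the highest TPM, ran from 5.52 to 8.12 CPM in sham and from 2.41 to 7.5 CPM in CHI mice of that strain and time, with 4 of 14 CHI mice below every sham mouse.

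**Figure D4:**
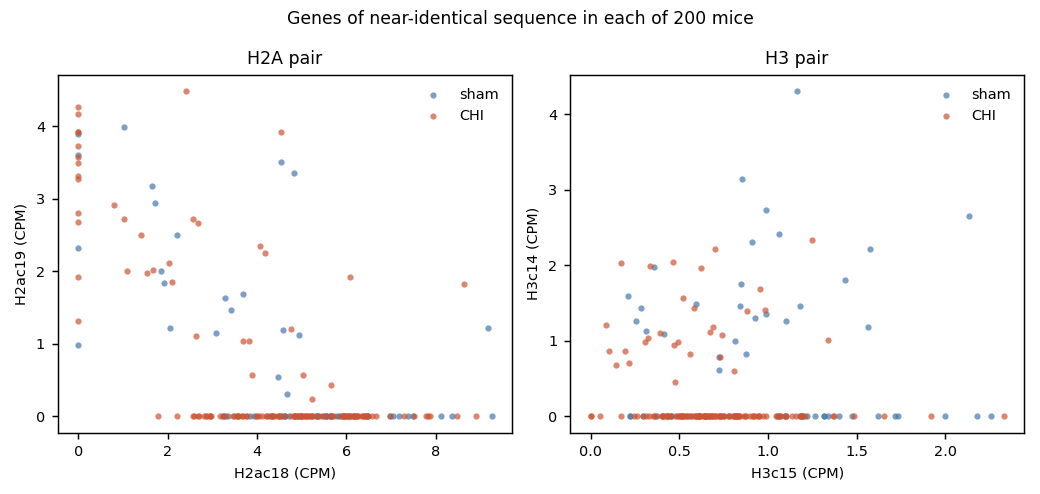
CPM of H2ac18 against H2ac19 and of H3c15 against H3c14, with 1 point per mouse coloured by surgery. Many mice lie on an axis, with 70.5% at 0 for H2ac19 and 72.5% at 0 for H3c14, while none has 0 for both H2A genes.

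Whether CHI acted differently in an IL-1R1 strain than in C57BL/6J mice was tested at each time, and 0 members were called in the 9 tests by edgeR, where 0 to 5 members per test had an unadjusted p under 0.05 and DESeq2 called 1 member, H3c14, in nRestore mice at 24 h. Over all genes 0.00567%, 0.0114% and 0% were called for gKO at 9, 24 and 72 h, 0.817%, 0% and 0% for eRestore, and 0.00555%, 0% and 0% for nRestore mice. The intervals were wide. For H1f4 at 24 h the difference from C57BL/6J was -0.21 in gKO (95% interval -1.14 to 0.72), -0.24 in eRestore (-1.19 to 0.70) and 0.16 in nRestore mice (-0.71 to 1.03). For H1f2 they were 0.08 (-0.33 to 0.48), 0.16 (-0.25 to 0.57) and 0.05 (-0.26 to 0.35). At 24 h H1f4, H1f2, H2bc4 and H2bc6 were lower after CHI in sign in each of the 4 strains. These genes were picked from those called lower over all strains in the same mice, so the shared sign is no independent result. A test short of the threshold does not show that the strains responded alike.

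Time was compared where the design allowed it. In C57BL/6J mice the CHI effect changed from 9 to 24 h for 2 members, H1f2 and H1f0, against 5.05% of all genes, but 9 h and later mice came from different experiments and the 2 cannot be told apart. From 24 to 72 h 0 members were called by edgeR, 8 had an unadjusted p under 0.05, DESeq2 called 1 (H2ac19, lower), and 0.0166% of all genes were called. The experiment eIL-1-38 held mice at 24 h (17 CHI, 9 sham) and 72 h (26 CHI, 11 sham), of 3 strains. Here 5 members were higher at 72 than at 24 h, against 2.93% of all genes. H1f4 rose by 0.87 on the log2 scale (SE 0.153, adjusted p = 0.0002), H2bc6 by 0.58 (SE 0.0997), H1f2 by 0.39 (SE 0.0701), H2ac18 by 0.30 (SE 0.08) and H2bc4 by 0.24 (SE 0.0527).

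The levels behind this rise are given for CHI and sham mice apart. H1f4 in eIL-1-38 had lowest, median and highest values of 0.267, 0.541 and 1.39 CPM at 24 h in CHI mice and 0.617, 1.54 and 3.73 CPM at 72 h. In sham mice it had 0.837, 1.87 and 2.91 CPM at 24 h and 1.29, 2.03 and 2.88 CPM at 72 h. H1f2 medians went from 8.36 to 13.2 CPM in CHI mice and from 12.6 to 12.8 CPM in sham mice, and H2bc6 medians from 2.69 to 4.59 CPM and from 4.16 to 5.13 CPM. In CHI mice alone 8 members were called higher at 72 h, against 5.18% of all genes (H1f4 by 1.28, H2bc6 by 0.73, H3c15 by 0.64, H2ac6 by 0.57, H1f2 by 0.52, H2ac18 by 0.40, H2bc4 by 0.34 and H1f0 by 0.12 on the log2 scale). In sham mice alone 0 members were called by edgeR, 1 had an unadjusted p under 0.05, and 0% of all genes were called. The difference between CHI and sham mice itself, an interaction fitted after these values were seen, passed the threshold for 0 members by edgeR and for 0.0528% of all genes. Its values were 1.11 for H1f4 (SE 0.284, adjusted p = 0.126), 0.41 for H1f2 (SE 0.14, adjusted p = 0.395) and 0.46 for H2bc6 (SE 0.201, adjusted p = 0.499), and 7 of 18 members had an unadjusted p under 0.05. The mice at 72 h were also older (median 6.1 against 5.2 months), and with age in the fit 2 members, H1f2 and H2bc6, were called.

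Levels also differed between experiments within a time point. With strain, surgery and sex as covariates, 6 of 18 members were called at 9 h, 11 at 24 h and 2 at 72 h, against 47.2%, 35.2% and 16.4% of all genes, so the share of members called was below that of all genes at 9 and 72 h and above it at 24 h. By p the leading members were H2ac25, H1f10, H1f4, H4c9 and H4c14 at 9 h, H1f10, H1f0, H2bc4, H2ac19 and H2bc6 at 24 h, and H1f10 and H1f0 at 72 h, where the next, H2ac6, H2ac18 and H2ac19, were not called. H2ac25 at 9 h had medians of 17.9 CPM in eIL-1-76 (range 11.8 to 22.5), 19.2 CPM in eIL-1-80 (16 to 25.5) and 22.7 CPM in TM-2-33 (16.8 to 29.6), with an adjusted p of 0.00134. The 7 experiment groups at 24 and 72 h had medians of 25.6 to 28.3 CPM, above each of those at 9 h. H1f10 at 24 h had medians of 13.9 CPM in eIL-1-38, 14 CPM in NiL-1-24 and 12 CPM in NiL-1-21, which held 18 CHI mice and 1 sham mouse, all female (adjusted p = 6.95e-05). H1f10 at 9 h had medians of 15.5 to 17.2 CPM, and at 72 h of 12.4 to 14.2 CPM. H1f0 at 72 h had a median of 80.2 CPM in nIL-1-60, which held 11 males, and of 90.2 to 92.7 CPM in the other experiments (adjusted p = 0.0402, and 0.057 without the mouse that went against its label).

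**Figure D5:**
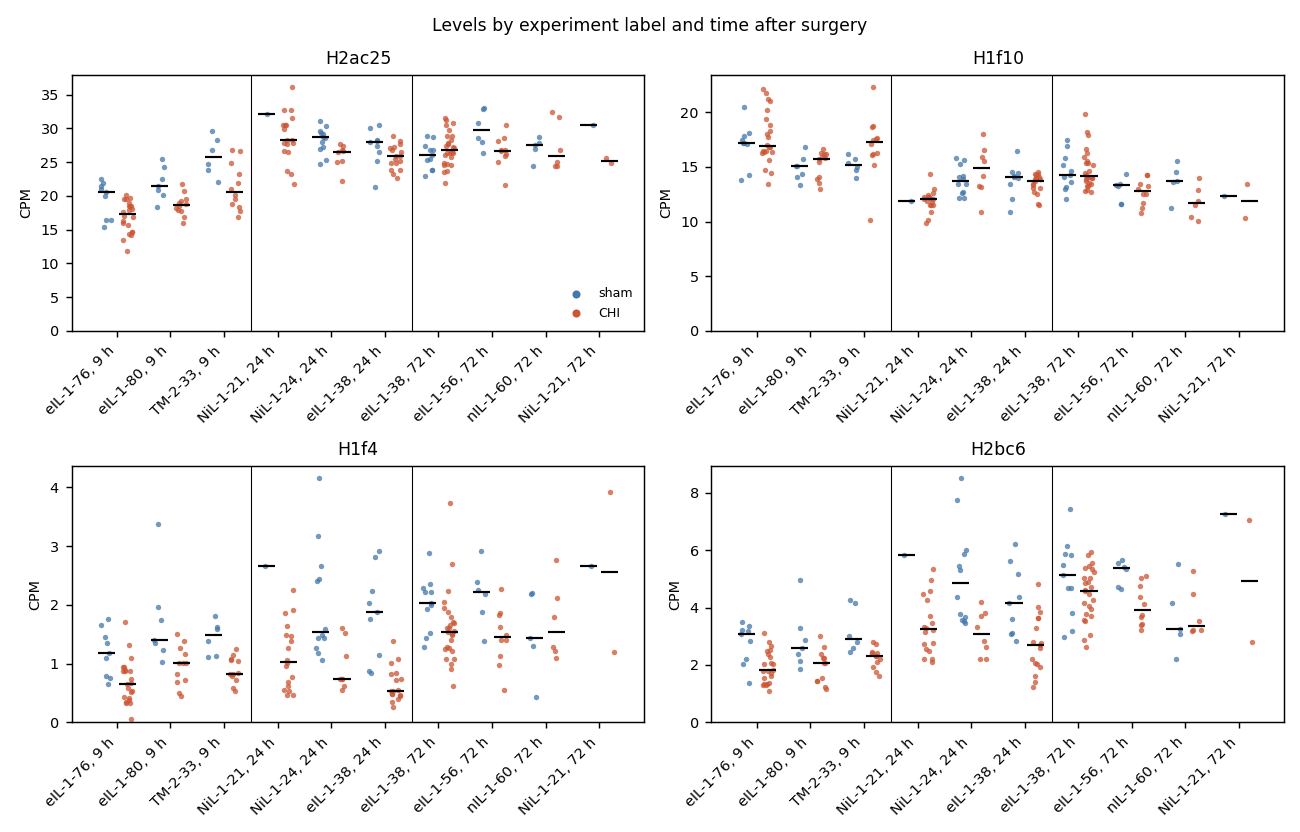
CPM of H2ac25, H1f10, H1f4 and H2bc6 in each mouse, by experiment label and time after surgery, with 1 point per mouse coloured by surgery and a bar at the median of the CHI and of the sham mice of each experiment. For H2ac25 the sham medians at 9 h are 20.6, 21.5 and 25.8 CPM in eIL-1-76, eIL-1-80 and TM-2-33 and the CHI medians 17.3, 18.6 and 20.6 CPM.

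In sham mice alone, no member was called between experiments at 9, 24 or 72 h by edgeR, with 22, 22 and 23 mice, although 2, 1 and 4 members had an unadjusted p under 0.05. Age differed between the experiments as well (medians 3.8 to 4.8 months at 9 h, 4.8 to 6.33 at 24 h and 5.3 to 6.1 at 72 h), and experiment and age cannot be told apart here. Between females and males, 0 members were called by edgeR or DESeq2 at 9, 24 and 72 h, against 0.096%, 0.2% and 0.125% of all genes, and 1, 1 and 2 members had an unadjusted p under 0.05. By p the leading members were H2ac6, H1f11-ps, H1f10, H1f4 and H1f0 at 9 h, H1f4, H4c9, H1f0, H1f11-ps and H4c14 at 24 h, and H4c9, H1f2, H2bc6, H3c14 and H2bc4 at 72 h. H1f4 at 24 h was at 0.61, female over male on the log2 scale (adjusted p = 0.292), H2ac6 at 9 h at -0.31 (0.904) and H4c9 at 72 h at 0.37 (0.657).

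Other genes of histone supply were counted from lists chosen with results of these data known. Over all strains 23.9%, 1.48% and 0.706% of all genes were called at 9, 24 and 72 h, and the 8 of 28 below lie near that share at 9 h. Of 28 S-phase and proliferation genes, 8 rose after CHI at 9 h over all strains, among them Cdt1 by 0.92, Mcm4 by 0.30 and Mcm7 by 0.23 on the log2 scale, which license or unwind DNA for replication, and none fell. At 24 h 0 of the 28 were called, and at 72 h 4 rose, Top2a by 1.01, Mki67 by 0.97, Cdk1 by 1.31 and Uhrf1 by 0.71. In the same comparison at 72 h no histone member was called. Of 19 genes for histone mRNA processing, 3 rose and 2 fell at 9 h, including Slbp, which binds the stem-loop (0.17, adjusted p = 0.00306), Cstf2t (0.17) and the cleavage factor Cstf2 (-0.14), and none was called at 24 or 72 h. Of 14 histone chaperones and transport genes 3 rose and 2 fell at 9 h, with Supt6 at 0.17, Ubn1 at 0.15 and Ipo4 at -0.12, and none was called later. Of 12 replication-independent histone variants, 9 were in the table and tested, and H3f3b (0.21) and Cenpa (0.40) rose at 9 h and none later. The median log2 fold changes over these 4 lists at 24 h were 0.03, 0.01, 0.01 and -0.01, against -0.34 over the histone members.

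Of 20 RNAs made without a poly(A) tail, taken as a gauge of how much such RNA entered the libraries, 5 or 6 could be tested per time and none was called. Their summed level was 43 CPM in CHI and 42.4 CPM in sham mice at 24 h (medians), 37.7 and 40.8 CPM at 72 h, and 17.6 and 28.9 CPM at 9 h, with ranges of 5.39 to 54.7 and 5.78 to 50.2 CPM at 9 h. The level at 9 h was lower in CHI mice, as were H1f4, H2bc6 and H2ac25, and its part in them was not tested. It also differed by experiment at 9 h, with medians of 11.6 CPM in eIL-1-76, 29.7 CPM in eIL-1-80 and 40.1 CPM in TM-2-33. Of these, eIL-1-76 held 22 CHI and 9 sham mice, eIL-1-80 held 12 and 7, and TM-2-33 held 12 and 6.

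Cell type markers were set beside these results. The counts of markers called stand against 23.9%, 1.48% and 0.706% of all genes called over all strains at 9, 24 and 72 h. At 24 h over all strains, Gfap (0.49) and Gad2 (0.25) rose and Aldh1l1 (-0.15) fell, so that 2 of 5 astrocyte and 1 of 6 neuronal markers were called, and 0 of 5 oligodendrocyte, progenitor, microglia, endothelium, choroid plexus and erythroid markers each. The summed astrocyte markers ran from 1081 to 1579 CPM in CHI and from 1081 to 1466 CPM in sham mice, and the summed neuronal markers from 5656 to 7633 and from 4920 to 7511 CPM. At 9 h, 5 of 5 choroid plexus markers (Ttr by 2.77) and 4 of 5 microglial markers (P2ry12 by 0.62) fell. There the choroid plexus sum ran from 4.54 to 1695 CPM in CHI and from 9.85 to 3610 CPM in sham mice, and the microglial sum from 115.7 to 262.9 and from 163.1 to 279 CPM. The erythroid sum, with 0 of 5 markers called, had a median of 33.2 CPM in CHI and 4.67 CPM in sham mice at 9 h, with ranges of 0.607 to 320.9 and 0.583 to 137.1 CPM. At 9 h 2 of 5 astrocyte, 2 of 5 endothelial, 1 of 6 neuronal, 1 of 5 progenitor and 1 of 3 tested muscle markers also rose, and 1 endothelial and 1 progenitor marker fell. At 72 h 3 microglial markers and 1 astrocyte marker rose. The single neutrophil marker that could be tested was not called at any time. The part of these cell types in the histone results was not tested.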

How the data were processed

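Libraries were poly(A)-selected from 1 hemisphere of each of 200 mice. Per the submitters' processing notes and the methods of the study, the authors checked reads with FastQC, aligned them with STAR to GRCm39 and quantified them with Salmon through nf-core/rnaseq. The methods give the version of the pipeline, while those of STAR, Salmon and FastQC, the annotation release and whether the libraries kept the strand are not given in the sources used here. What the authors deposited are estimated counts per gene, summed over the transcripts that Salmon quantified, and the matching TPM, which correct for depth and transcript length, each with 200 columns. Reads of genes that share sequence were thereby shared out by an estimate. Groups came from the sample labels.

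Estimated counts were rounded to whole numbers and tested with edgeR 4.0.16 in R 4.3.3 (TMM factors, quasi-likelihood F test, robust dispersion). Genes needed 10 counts in as many mice as the smaller group held, sex and age were terms of each fit, and strain was added where strains were pooled. Sex was left out for nRestore mice at 72 h, which were of 1 sex. P-values were adjusted by Benjamini-Hochberg over all genes tested. The script was tested on simulated counts with known changes. Intervals are 95% normal intervals of the log2 fold change. Totals of 14857985 to 57355676 counts per mouse limit the members below 1 CPM. Alternatives were DESeq2 1.42.0 with size factors or gene-length offsets, RLE factors, other low-count filters, other covariates, the largest experiment alone and leaving out each sham mouse. Fits within experiments, on CHI or sham mice alone and without the mice that went against their sex label were chosen after seeing the data. So were fits with the H2A pair and the H3 pair summed and with a surgery-by-time interaction.

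The members and gene lists were chosen with earlier results of these data known. Values are given for members called in at least 1 of the 12 strain-by-time comparisons, for H1f0 and H1f10, and for the member of each histone class with the highest median TPM. For experiment and sex the 5 members with the smallest p are named, and for other lists the 3 genes with the smallest p. Other genes named were chosen after their values were seen. Coordinates, promoters and stem-loops were read from GRCm39 and GENCODE vM39, and chromosome names and gene names, not the annotation release, were matched to the table. No protein sequences were used here.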

Additional observations from a re-analysis of the deposited data

Results flagged for a closer look

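The change of the CHI effect between 9 and 24 h in C57BL/6J mice differed from 0 for H1f2 (-0.73 on the log2 scale) and H1f0 (-0.34), by a test of that difference in edgeR. Mice at 9 h came from other experiments than mice at 24 h, and the 2 cannot be told apart.

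Single mice stood apart from the rest of their group in 20 cases (11.5% of the groups tested), by Dixon's test at 95% applied to each member named with full values in each group of 4 to 10 mice, and chance alone flags about 1 in 20 groups. Of these, 7 concern H3c14. Its highest mouse was at 1.46, 1.09 and 0.827 CPM in sham C57BL/6J mice at 24, 72 and 9 h, at 1.26 CPM in sham eRestore mice at 24 h, and at 2.05 and 0.985 CPM in CHI nRestore mice at 24 and 9 h, and in each of these 6 groups the other mice were at 0, so that the test had to pass. Without such groups the share was 8.33% (14 cases). The highest sham nRestore mouse at 72 h was at 4.31 CPM, with the others at 1.125 to 1.98 CPM. H2ac18, whose reads are shared with H2ac19, was at 0 in a sham eRestore mouse at 9 h and at 4.47 to 5.66 CPM in the others. H3c15 was at 2.13 CPM in a sham nRestore mouse at 24 h, with the others at 0.852 to 1.06 CPM.

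Replicate A149, a sham eRestore mouse at 72 h, was the highest of its group for H1f0 (109.4 CPM, others 76.2 to 86.4), H1f2 (18.8 CPM, others 10.05 to 12.8) and H2bc4 (30.3 CPM, others 15.3 to 18.5). In the same group H1f4 was lowest in another mouse, at 1.44 CPM against 2.03 to 2.29 CPM. H1f10 was lowest, at 10.9 CPM against 14.0 to 15.3 CPM, in a sham eRestore mouse at 24 h. H4c8 was highest in a sham mouse of the same group, at 0.917 CPM against 0.354 to 0.434 CPM.

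H1f4 was highest in a sham C57BL/6J mouse at 9 h (replicate A087, 3.38 CPM, others 1.02 to 1.76) and in a sham nRestore mouse at 24 h (2.44 CPM, others 1.27 to 1.59). In CHI nRestore mice H2bc6 was highest at 3.69 CPM at 24 h (others 2.11 to 2.78) and at 4.38 CPM at 72 h (others 3.19 to 3.52), the latter in the mouse that went against its sex label, and H1f2 was highest at 13.7 CPM at 72 h (others 10.9 to 11.2).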

How the results depend on the processing

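Of 286 alternatives to a count of members called, 252 gave a count that was unchanged or within 1.5 times the reported one. A count of 0 that stayed at 0 is among these, so the 252 say little about the counts above 0. DESeq2 with size factors called 4 members in C57BL/6J mice at 9 h and 4 at 24 h, and 1 each in nRestore mice at 24 h, in the difference of nRestore from C57BL/6J mice at 24 h and in the change from 24 to 72 h, where edgeR called 0. With gene-length offsets it called 4 at 9 h and 4 at 24 h in C57BL/6J mice. At 24 h these mice gave 4 with the experiment in place of age and 6 with no low-count filter, which gave 1 in eRestore mice at 24 h. The largest experiment alone, with fewer mice, gave 1 and 0 in C57BL/6J mice at 9 and 24 h, 0 in eRestore mice at 9 h and 0 in nRestore mice at 72 h. The last count was also 0 with 10 counts required in every mouse, which removes H3c14, and 0 with pairs summed. Over all strains at 24 h, the calls of H2bc4, H2bc21 and H3c15 were lost with the experiment added to the fit. Within experiments, all strains gave 1 in eIL-1-80 and 0 in TM-2-33 at 9 h, and 2 in eIL-1-38 and 0 in NiL-1-24 at 24 h. Sham mice alone gave 0 between experiments at 9, 24 and 72 h and 0 between 72 and 24 h in eIL-1-38, where CHI mice alone gave 8 and a fit with age 2. Without the mice against their sex label 1 member differed between experiments at 72 h. The cause of these shifts was not tested beyond what the settings state.

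Leaving out each sham mouse gave 1 to 3 members in C57BL/6J mice at 9 h, 0 to 3 at 24 h, 1 to 4 in eRestore mice at 9 h and 1 in nRestore mice at 72 h. The value of H1f2 in eRestore mice at 9 h, -0.05, ran from -0.13 to 0.041 and reversed to 0.041 and 0.03 without replicates A175 and A188. Within single experiments at 9 h H1f2 reversed to -0.062 in eIL-1-80 and H2bc4 to 0.046 in TM-2-33. Over 52 values of single genes and 648 alternatives, 575 kept direction and side of the threshold, 57 lost the threshold, 12 gained it and 4 reversed. The experiment in place of age could not be fitted for nRestore mice at 9 h or for their difference from C57BL/6J mice. No paired analysis was possible because the groups share no replicate numbers. Depth limited H2ac19 and H3c14 (medians of 0 counts), H1f11-ps (5) and then the H4 genes, H3c15, H2ac6 and H1f4 (8.07 to 28.3).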
